A study of Arabidopsis thaliana with 6 samples.

Results

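Unopened flower buds of Arabidopsis thaliana were compared between the ends of a drought time course, day 5 against day 3. The comparison used the 4 arrays titled day 5 and day 3, out of 6 in the series, and 22746 of the 22810 probe sets on the array, the other 64 being manufacturer controls. Day 5 buds came from plants 30 days after germination and day 3 buds from plants at 28 days, with 2 arrays each, and the pair of day 4 arrays (29 days) entered the model of the spread and the account of the daily steps. Every plant was droughted and carried anac019-1 (SALK_096295), a T-DNA insertion in ANAC019, which encodes a NAC transcription factor. The background was Col-0. Watering stopped after 24 days of growth, when the main stem had just bolted. About 80 hours later, on what the labels call day 3, the soil held near 35% of its water capacity, and daily watering then kept it there. Days at low soil water and plant age therefore cannot be told apart. Buds of wild-type or well-watered plants (90% of water capacity) were not analysed here, and effects of the allele and of the drought cannot be told apart. ANAC019 has no named probe set in the annotation used and was not analysed here. The labels do not say whether a day's replicates were grown apart, so p-values reflect only the spread between these arrays, which may be technical.

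Plants that lose water accumulate abscisic acid (ABA), which switches on dehydrins and other late embryogenesis abundant (LEA) proteins, small hydrophilic proteins best known from drying seeds. When sugar supply to a growing organ falls, the SnRK1 kinase is known to turn on a starvation programme that includes protein breakdown and autophagy, while growth genes are turned down. A flower bud is itself a changing organ: in the anther the tapetum feeds the young pollen and builds its wall, then degenerates as pollen matures, and petals and filaments elongate before the bud opens.

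Values are log2 summaries of RMA, a method that brings all arrays to a common distribution. A change is thus measured against all other transcripts, and changes of dim probe sets are compressed. Across all probe sets, which are not independent replicates, Pearson's r was 0.9939 between the day 5 arrays, 0.9937 between the day 3 arrays and 0.9638 to 0.9731 between days. A pair of genes known from flowers is given as an illustration. They were chosen after their values were seen, so they cannot check the bud label. ATA27, an anther-specific gene, read 12.03 and 11.86 on day 5, against 12.17 and 12.22 on day 3. THI2.1, a thionin gene expressed in flowers, read 12.53 and 12.60 on day 5, against 12.51 and 12.79 on day 3. These values lie near the top of the scale on all 4 arrays. The 3′ minus 5′ difference of control probe sets, a sign of RNA quality, was 1.81 and 1.73 on day 5, against 2.23 and 1.61 on day 3. Poly-A spike-in probe sets, RNAs meant to be added in equal amounts, averaged 7.03 and 6.87 on day 5, against 6.51 and 6.38 on day 3. How much was added per sample is unknown here. Centring the arrays on these controls lowers every day 5 minus day 3 difference by the same amount, a shift of -0.50. The part that RNA quality or spike-in amount plays in the results was not tested.

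Between day 3 and day 5 a large share of the measured transcripts shifted, and the largest shifts were upward. Past an adjusted p of 0.05 (limma, Benjamini-Hochberg over all probe sets) were 6548 probe sets, 28.8% of those tested, of which 2927 (12.9%) were higher and 3621 (15.9%) lower on day 5. The median of all differences was -0.04 on the log2 scale. With arrays centred on the spike-in controls 16041 probe sets passed, 1102 higher and 14939 lower, so 6.87% of the calls were higher, against 44.7% with the deposited values. Of the 1702 probe sets that changed at least 2-fold with the deposited values, 1694 still passed under that scaling. The shift of -0.50 is smaller than any 2-fold change and deepens every fall, so this count does not check the scaling. Those 1702 make up 7.48% of all tested, 997 higher (4.38%) and 705 lower (3.1%). With the deposited values the asymmetry widened with size. There 162 rises but 38 falls reached 4-fold, 63 rises but 5 falls 8-fold, and 22 rises but 1 fall 16-fold. Spike-in centring makes every such rise smaller and every such fall larger by 0.50.

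**Figure D1:**
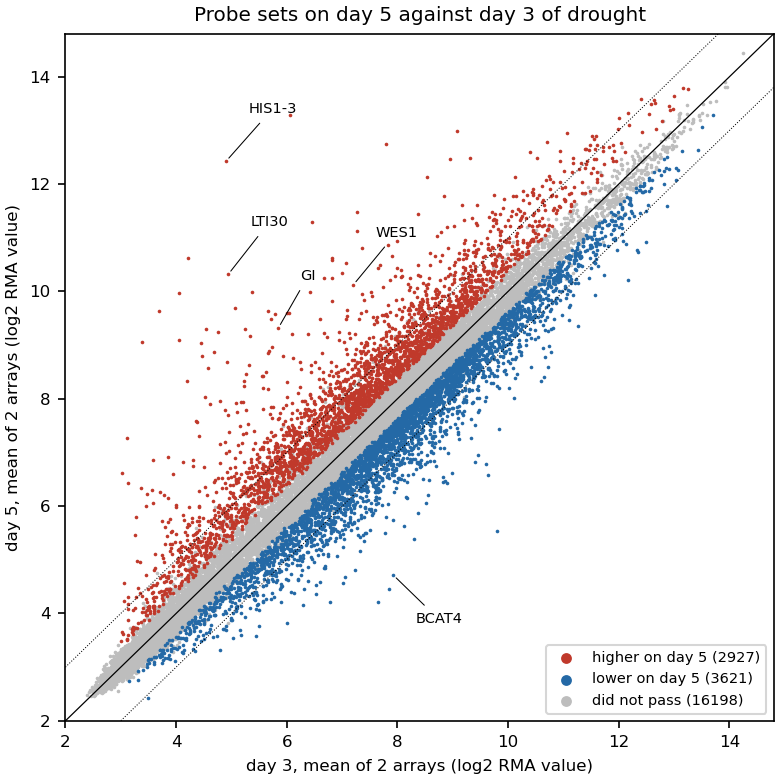
Mean log2 value of each probe set on day 5 (vertical axis) and day 3 (horizontal axis), 2 arrays per day. Red points were higher and blue points lower on day 5 past the adjusted p threshold, grey points did not pass, and dotted lines mark 2-fold changes. The points farthest from the diagonal lie above it, among them HIS1-3 and LTI30, while BCAT4 is among the few far below it.

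The arrays themselves showed the same split. The 2 arrays of day 5 both lay above or both below the 2 arrays of day 3 for 14020 probe sets, 61.6% of all, with 5991 higher (26.3%) and 8029 lower (35.3%). Every called probe set was among them, and 7472 others were separated without passing. Probe sets that rose at least 2-fold had a median level of 8.47 on day 5 and 6.82 on day 3, and 157 of the 997 had a day 3 mean under 5, near the floor of the scale. Probe sets that fell at least 2-fold had a median level of 6.52 on day 5 and 7.86 on day 3. The day 5 arrays were not alike in the falls: among the 705 falls of at least 2-fold, replicate 2 read lower than replicate 1 in 579 (82.1%), by a median of -0.22. Among probe sets that did not pass, replicate 2 was lower in 52.9%. Without day 5 replicate 2, 3894 probe sets passed, 1924 higher and 1970 lower.

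For single genes, the brightest of a gene's probe sets stands for it. Of 13355 genes so represented, 12.1% passed upward and 14.4% downward, with a median difference of -0.04. Spike-in centring lowers the median of every list and family by the same 0.50, and its counts are given where they differ much. Gene lists and families below were chosen with earlier results of these data known, so their counts describe them and are to be read beside those shares.

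Several dehydrin and LEA genes were among the largest rises. Of the ABA and dehydration list 5 genes were measured and all changed, 4 upward and 1 downward, with a median difference of 1.33. HIS1-3, a linker histone variant known to respond to drought and ABA, read 12.36 and 12.49 on day 5, against 4.83 and 4.98 on day 3. It was among the dimmer transcripts on both day 3 arrays and among the brightest on both day 5 arrays, a 183.8-fold rise (7.52 ± 0.33 on the log2 scale, moderated SE; adjusted p = 1.62e-05). Its day 3 mean of 4.90 lies in the dim range that RMA compresses. LTI30, a dehydrin that binds membranes, read 10.21 and 10.42 on day 5, against 3.99 and 5.90 on day 3 (5.38 ± 0.52, adjusted p = 0.000451). The day 3 arrays differed widely for it, yet neither came near the day 5 arrays.

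COR47, an acidic dehydrin, read 11.45 and 12.13 on day 5, against 10.19 and 10.72 on day 3 (1.33 ± 0.26, adjusted p = 0.00726). The neighbouring cold-regulated pair COR15A and COR15B, whose proteins protect chloroplast membranes during freezing and dehydration, moved apart. COR15A read 12.69 and 12.75 on day 5, against 11.75 and 12.05 on day 3 (0.82 ± 0.13, adjusted p = 0.00327, not past the threshold with spike-in centring). COR15B read 9.42 and 9.37 on day 5, against 10.10 and 10.19 on day 3 (-0.75 ± 0.11, adjusted p = 0.00247). The copies are similar in sequence, and how far their probe sets share signal was not tested. COR27, a cold- and clock-regulated gene, read 10.30 and 10.27 on day 5, against 7.75 and 8.15 on day 3 (2.33 ± 0.15, adjusted p = 8.27e-05).

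Of 20 measured LEA genes 14 rose and 6 did not pass, with a median difference of 1.13 and single values between -0.06 and 6.41. The annotation gives 15 of the 20 by locus alone, and 15 had a day 3 mean under 5. LEA4-5, of the group whose members protect enzymes during drying, read 11.12 and 11.46 on day 5, against 6.09 and 6.82 on day 3 (4.83 ± 0.26, adjusted p = 3.81e-05). LEA18, its relative, read 9.83 and 10.15 on day 5, against 5.29 and 5.45 on day 3 (4.62 ± 0.18, adjusted p = 1.23e-05). The 4 largest rises in the list belonged to genes given by locus alone. AT2G21820 read 10.57 and 10.70 on day 5, against 4.24 and 4.2 on day 3, an 85.0-fold change. AT3G17520 read 9.70 and 9.56 on day 5, against 3.6 and 3.79 on day 3 (61.1-fold), AT5G66780 rose 60.1-fold and AT3G15670 51.1-fold. In each of the 4 the day 3 arrays sat near the floor, where RMA compresses differences. Other members stayed dim throughout: M17 read 2.55 and 2.61 on day 5, against 2.66 and 2.62 on day 3 (adjusted p = 0.741), and AT4G21020 read 3.00 and 2.98, against 2.83 and 2.80 (adjusted p = 0.265). Without any 1 array 12 or 13 of the list rose, and with spike-in centring 11 were higher and 4 lower.

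In the list of seed maturation, storage and oil body genes, markers of embryo tissue, 1 of 6 measured rose, and the median of 0.17 becomes -0.33 with spike-in centring. That gene was PAP85, a vicilin-like storage protein, which read 6.10 and 6.57 on day 5, against 3.32 and 3.43 on day 3 (2.96 ± 0.17, adjusted p = 4.87e-05). The oleosin gene OLEO3 read 7.07 and 6.97, against 6.45 and 6.74 (adjusted p = 0.0532), and AT2G28490, AT2G18540 and AT1G03890 stayed between 3.15 and 3.64 on all 4 arrays. AGL67, a MADS-box factor known from seed desiccation tolerance, read 5.77 and 5.82 on day 5, against 3.42 and 3.13 on day 3 (2.53 ± 0.14, adjusted p = 4.39e-05).

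**Figure D2:**
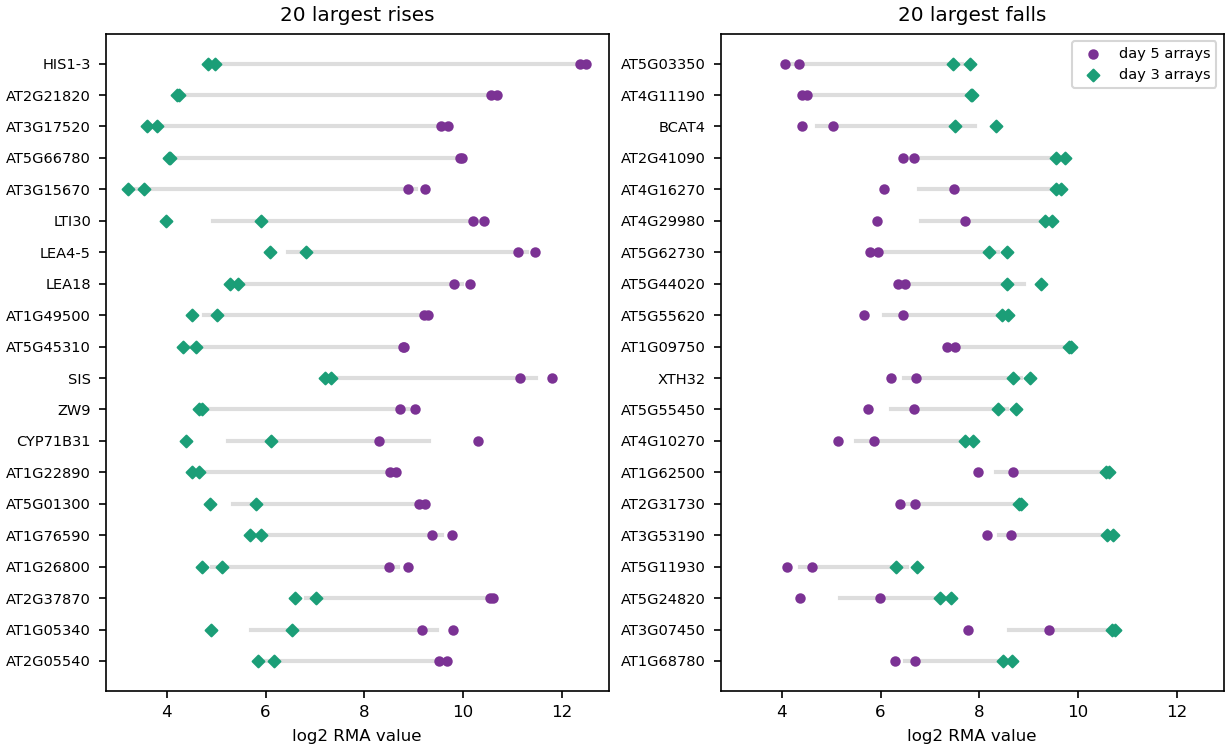
Log2 value on each day 5 array (purple circles) and each day 3 array (green diamonds) for the 20 largest rises and the 20 largest falls among called genes, with grey bars joining the day means. Arrays of the days do not overlap in any row, the widest gap is that of HIS1-3, and CYP71B31, AT4G16270 and AT4G29980 show wide spread between the day 5 replicates.

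Genes known to rise when sugar runs short were higher on day 5. Of 13 measured genes of this list, 9 rose and 4 did not pass (8 or 9 rose when any 1 array was left out), with a median of 0.62, or 0.12 with spike-in centring, under which 6 were higher and 3 lower. AT1G49500 read 9.20 and 9.28 on day 5, against 5.01 and 4.51 on day 3 (4.48 ± 0.19, adjusted p = 1.58e-05). AT5G45310 read 8.79 and 8.81, against 4.59 and 4.33 (4.34 ± 0.15, adjusted p = 9.51e-06), and AT1G22890 read 8.64 and 8.52, against 4.64 and 4.51 (4.01 ± 0.12, adjusted p = 8.8e-06). These genes sat below 5.1 on both day 3 arrays and above 8.5 on both day 5 arrays. AT2G20670 rose by 3.3 ± 0.14 and AT3G15450 by 2.94 ± 0.15, the second at 11.74 and 11.81 on day 5, against 8.76 and 8.91 on day 3, well above the floor on all 4 arrays. AT4G33150 rose by 1.14 ± 0.15 (adjusted p = 0.00149). The annotation gives these 6 by locus alone. The methylcrotonyl-CoA carboxylase subunit gene MCCB, of leucine breakdown, read 9.03 and 9.03 on day 5, against 8.84 and 8.88 on day 3, and did not pass (adjusted p = 0.276), nor did D2HGDH, a dehydrogenase of lysine breakdown (adjusted p = 0.893).

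Autophagy genes rose together. In the family of genes named ATG, 10 of 11 rose and the other did not pass, with a median of 0.76, or 0.26 with spike-in centring. The arrays did not overlap for any of the 11, where 59.1% of all named genes were so separated. ATG8 proteins coat the membrane that encloses cargo for breakdown in the vacuole. ATG8F read 11.41 and 11.53 on day 5, against 10.22 and 10.35 on day 3 (1.18 ± 0.12, adjusted p = 0.000454). ATG8E read 7.86 and 8.15, against 7.02 and 6.80 (1.1 ± 0.14, adjusted p = 0.00136), and ATG8B read 9.81 and 10.04, against 8.66 and 8.97 (1.11 ± 0.15, adjusted p = 0.00144). APG8A, the ATG8A gene, rose by 0.76 ± 0.11, a call lost with spike-in centring. Without any 1 array 7 to 10 of the family rose, the fewest without day 5 replicate 1, and with spike-in centring 4 did.

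Vacuolar proteases were higher too. GAMMA-VPE, the vacuolar processing enzyme of vegetative tissue, read 11.42 and 11.81 on day 5, against 9.37 and 9.49 on day 3 (2.18 ± 0.16, adjusted p = 0.000143). BETA-VPE, known for processing seed storage proteins, read 9.43 and 9.45, against 8.03 and 7.47 (1.69 ± 0.18, adjusted p = 0.000632). In the wider list of senescence, autophagy and proteolysis, 11 of 19 measured genes rose and 8 did not pass, with a median of 0.56. With spike-in centring 6 were higher and 5 lower, and the median was 0.06. Among those that did not pass, SAG29 read 7.46 and 7.88 on day 5, against 7.23 and 7.09 on day 3 (adjusted p = 0.0816). WRKY53, a regulator of leaf senescence, read 3.84 and 3.71, against 3.64 and 3.67 (adjusted p = 0.535), and WRKY6 differed by 0.39 (adjusted p = 0.135).

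Single sugar carrier genes gave calls in both directions. In the SWEET family of sugar facilitators 2 of 14 rose and 2 fell, near the 12.1% and 14.4% of all named genes. Both counts moved without day 5 replicate 1, and with spike-in centring 2 were higher and 7 lower. The median of 0.18 becomes -0.32 with spike-in centring. SWEET13, a sucrose exporter of the phloem, read 9.67 and 10.89 on day 5, against 8.29 and 8.52 on day 3 (1.87 ± 0.34, adjusted p = 0.00531). SWEET4 read 10.76 and 10.96, against 9.16 and 9.60 (1.48 ± 0.17, adjusted p = 0.000878). The falls were in genes of vacuolar carriers. SWEET17, a fructose facilitator, read 6.69 and 6.32, against 8.09 and 8.03 (-1.56 ± 0.15, adjusted p = 0.000402), and SWEET2 read 5.30 and 5.49, against 5.94 and 6.33 (-0.74 ± 0.15, adjusted p = 0.00967, lost without day 5 replicate 1). TMT2, which loads sugar into the vacuole, read 9.71 and 9.62 on day 5, against 8.19 and 8.18 on day 3 (1.48 ± 0.12, adjusted p = 0.000243), a separation without overlap and with close replicates.

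Other carrier families also gave calls in both directions. Of 7 cation antiporter genes 3 rose (median 0.33, or -0.18 with spike-in centring), among them CHX19, at 8.78 and 8.49 on day 5, against 7.43 and 7.41 on day 3 (1.22 ± 0.15, adjusted p = 0.000988), and CHX15 (1.08 ± 0.16). Of 5 metal transporters 1 rose and 3 fell (median -0.40, or -0.90 with spike-in centring), and fewer fell without any 1 array. NRAMP5, a metal transporter, read 6.56 and 6.72, against 5.25 and 5.40 (1.32 ± 0.13, adjusted p = 0.000451). The metal tolerance gene MTPA1 read 3.26 and 2.97, against 4.01 and 3.94 (-0.86 ± 0.13, adjusted p = 0.00247), near the floor on all 4 arrays. In the nitrate and peptide transporter family AT2G26690 rose by 1.25 ± 0.16 and AT1G68570 by 1.08 ± 0.12, with 2 of 10 higher and 1 lower (median 0.10, or -0.40 with spike-in centring).

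Of 8 measured heat shock genes 3 were higher on day 5 (1 without day 5 replicate 1, and 2 without any other except day 3 replicate 1), with a median of 0.39 that turns to -0.12 with spike-in centring, under which none of the 3 calls held and 2 genes were lower. HSA32, needed for long-term acquired heat tolerance, read 7.09 and 6.97 on day 5, against 6.49 and 6.32 on day 3 (0.62 ± 0.13, adjusted p = 0.00876). AT2G29500 (0.69 ± 0.14) lost its call without day 5 replicate 1, and BOB1 (0.42 ± 0.12) lost its call when any 1 array was left out. In the reactive oxygen list ALDH7B4, an aldehyde dehydrogenase induced by dehydration, was higher at 10.92 and 11.03, against 10.35 and 10.50 (0.55 ± 0.12, adjusted p = 0.0103), and SAPX, a stromal ascorbate peroxidase, was lower at 9.49 and 9.64, against 9.92 and 10.16 (-0.48 ± 0.14, adjusted p = 0.0393). The call of ALDH7B4 was lost without day 5 replicate 2 and with spike-in centring. That of SAPX was lost without day 3 replicate 2, without any 1 array of days 4 and 5, with the 4 arrays of days 3 and 5 alone, with cyclic loess and with array weights.

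Among regulators, the clock-associated gene GI, which also times flowering, read 9.32 and 9.31 on day 5, against 5.96 and 5.73 on day 3, an 11.1-fold rise (3.47 ± 0.14, adjusted p = 1.23e-05). It was the single called gene of the 3 measured in the clock list, and the sources used here do not give the hour of sampling. STZ, a zinc finger repressor known from salt and cold stress, read 5.59 and 5.47, against 4.03 and 3.82 (1.61 ± 0.13, adjusted p = 0.000258). BZIP60, a factor of the unfolded protein response, read 9.61 and 9.60, against 8.88 and 8.77 (0.77 ± 0.11, adjusted p = 0.00192, lost with spike-in centring), and 4 of 20 bZIP genes rose in all (1 without day 5 replicate 2 and 2 without day 3 replicate 1), with a median of 0.17 that becomes -0.33 with spike-in centring. WRKY22 read 5.68 and 5.57, against 4.70 and 4.65 (0.96 ± 0.14, adjusted p = 0.00215). PUB19, a ubiquitin ligase known to act in drought and ABA responses, read 8.11 and 7.97, against 7.41 and 6.98 (0.85 ± 0.17, adjusted p = 0.00893, lost with spike-in centring).

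Hormone genes moved in gene-specific ways. WES1, a GH3 enzyme that conjugates auxin to amino acids, read 10.09 and 10.15 on day 5, against 7.01 and 7.39 on day 3 (2.92 ± 0.16, adjusted p = 4.15e-05). HAT2, an auxin-induced homeobox gene, read 9.93 and 9.80, against 8.47 and 8.43 (1.42 ± 0.11, adjusted p = 0.000234). SKP2A, an F-box protein of the cell cycle that binds auxin, read 10.22 and 10.11, against 8.54 and 8.37 (1.71 ± 0.15, adjusted p = 0.000324). The auxin synthesis gene YUC4 was lower, at 3.55 and 3.53, against 4.29 and 4.06 (-0.64 ± 0.14, adjusted p = 0.0113), a call lost without day 5 replicate 2 or day 3 replicate 1. IAA33, of the Aux/IAA family, read 4.17 and 4.62, against 5.51 and 5.33 (-1.02 ± 0.17, adjusted p = 0.0034), and IAA18 rose by 0.80 ± 0.13 (adjusted p = 0.00317, lost with spike-in centring). Over the 10 auxin list genes 2 rose, 2 fell and 6 did not pass, and without any 1 array 1 fell, or 0 without day 3 replicate 1. The list's median of -0.0024 is 0.02 with cyclic loess and -0.50 with spike-in centring, under which 2 were higher and 6 lower.

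All 3 gibberellin receptor genes were higher on day 5, while the median of the 7-gene list was 0.14, or -0.37 with spike-in centring. GID1B read 6.89 and 6.75 on day 5, against 5.39 and 5.31 on day 3 (1.47 ± 0.13, adjusted p = 0.000282). GID1C read 6.42 and 6.12, against 5.22 and 5.32 (1.00 ± 0.13, adjusted p = 0.00159). GID1A read 8.47 and 8.35, against 7.64 and 7.90 (0.64 ± 0.15, adjusted p = 0.0158), a call lost without either day 5 array, without day 3 replicate 1 and with spike-in centring. The F-box gene SLY1, which marks DELLA repressors for breakdown, read 8.33 and 8.25, against 8.57 and 8.69, and did not pass (adjusted p = 0.0605). For cytokinin, the type-A response regulator ARR15, induced by the hormone, read 6.27 and 5.79, against 7.71 and 7.94 (-1.79 ± 0.18, adjusted p = 0.000467). The ethylene factor EIN3 read 9.70 and 9.87, against 9.42 and 9.63 (adjusted p = 0.177).

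In the jasmonate list 1 of 6 genes rose and 2 fell, with a median of -0.08, while with spike-in centring 0 were higher and 4 lower by limma, with a median of -0.58. The related factors MYC3 and MYC4, which act downstream of jasmonate and activate glucosinolate genes, moved apart. MYC3 read 7.88 and 7.91 on day 5, against 7.27 and 7.33 on day 3 (0.60 ± 0.11, adjusted p = 0.00509, lost with spike-in centring). MYC4 read 5.94 and 5.86, against 6.82 and 6.96 (-0.99 ± 0.12, adjusted p = 0.00122). JMT, the jasmonate methyltransferase, read 8.96 and 8.63, against 9.74 and 9.43 (-0.79 ± 0.16, adjusted p = 0.00912, lost without day 5 replicate 2). PDF1.2, a jasmonate-ethylene defence marker, read 5.01 and 4.89, against 5.06 and 4.99 (adjusted p = 0.677).

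**Figure D3:**
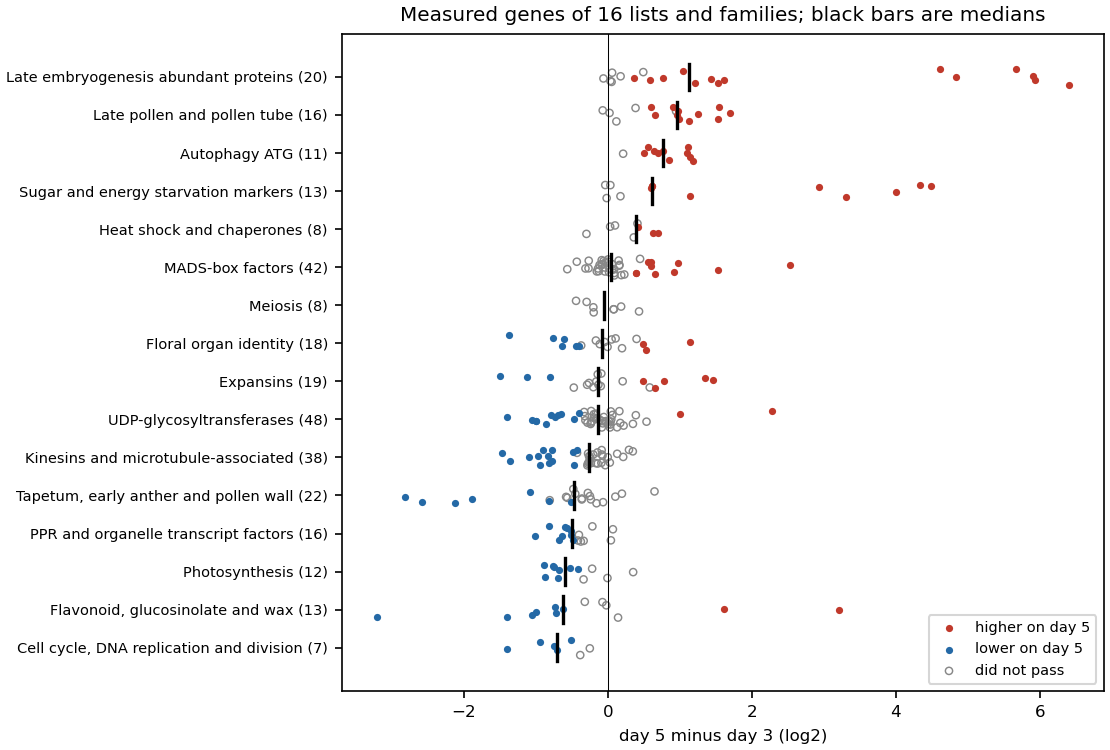
Day 5 minus day 3 difference on the log2 scale for each measured gene of 16 lists and families, ordered by their median (black bar); the number of genes is in brackets. Red and blue points passed upward and downward and open points did not. LEA genes spread from near 0 to 6.41, late pollen and autophagy medians lie at 0.96 and 0.76, and medians of the cell cycle and flavonoid lists lie at -0.70 and -0.62.

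Late pollen genes gave calls upward and early anther genes calls downward, and no test set the lists against each other. In the late pollen list 11 of 16 measured genes rose and 5 did not pass, with a median of 0.96. AGL104, a MADS-box factor needed for pollen maturation, read 7.36 and 7.51 on day 5, against 5.76 and 6.04 on day 3 (1.53 ± 0.17, adjusted p = 0.000708). Its relative AGL66 read 7.08 and 7.25, against 6.14 and 6.23 (0.98 ± 0.13, adjusted p = 0.00132). ACT12, an actin gene of pollen, read 8.66 and 8.92, against 7.63 and 7.69 (1.13 ± 0.14, adjusted p = 0.00124). AT4G39110 rose by 1.26 ± 0.17 and AT5G45880 by 0.97 ± 0.11. ANX1, a receptor kinase that keeps the pollen tube intact, read 6.59 and 6.83, against 5.71 and 5.89 (0.91 ± 0.13, adjusted p = 0.00228, lost with spike-in centring). Its partner ANX2 read 6.62 and 8.04, against 6.32 and 6.44, and the spread on day 5 kept it from passing (adjusted p = 0.136). Without any 1 array 8 to 11 of the list rose. With spike-in centring 7 of the list were higher and 2 lower.

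In the list of tapetum, early anther and pollen wall genes 7 of 22 measured genes fell and 15 did not pass, with a median of -0.47. SHT, a hydroxycinnamoyl transferase that makes pollen coat polyamines in the tapetum, read 9.24 and 8.32 on day 5, against 10.77 and 10.58 on day 3 (-1.89 ± 0.26, adjusted p = 0.00173). Larger falls came from genes given by locus alone. AT4G16270 read 7.48 and 6.07, against 9.55 and 9.65 (-2.82 ± 0.40, adjusted p = 0.00192), AT4G29980 read 7.72 and 5.93, against 9.47 and 9.33 (-2.57 ± 0.47, adjusted p = 0.00551), and AT3G07450 read 9.41 and 7.78, against 10.69 and 10.76 (-2.13 ± 0.43, adjusted p = 0.00856, lost with a trended and robust prior). In all 3 the day 3 arrays lay close together while day 5 replicate 2 lay more than 1 log2 unit below replicate 1. Replicate 2 was the lower day 5 array in 17 of the 22 genes, by a median of -0.46. AT1G75900 lacked that spread, at 8.40 and 8.54, against 9.50 and 9.59 (-1.08 ± 0.12, adjusted p = 0.000799). Not past the threshold were AT5G62080, at 11.48 and 10.35, against 11.45 and 11.99 (adjusted p = 0.117), AT5G48210, at 10.39 and 9.57, against 10.58 and 10.54 (adjusted p = 0.11), and the sugar facilitator SWEET8, at 10.18 and 9.98, against 9.61 and 9.25 (adjusted p = 0.0503). The number of calls lower was 6 to 12 without any 1 array, highest without day 5 replicate 1, and 19 with spike-in centring.

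Converted from log2 and summed, the late pollen list stood at 9127 and 9858 on the day 5 arrays, against 5125 and 5464 on the day 3 arrays. Such a sum leans on bright genes. AT5G45880 read 12.34 and 12.40 on day 5, against 11.44 and 11.36 on day 3, where the list's median levels were 7.25 and 6.13. The tapetum list summed to 20385 and 15030 on day 5, against 24492 and 25781 on day 3. No defining marker of either list is at 0, since RMA values have a floor. In whole buds, fewer cells of a type and less RNA per cell cannot be told apart, and the part that a changed mix of anther cell types or bud ages plays in other results was not tested.

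Meiosis genes, active in younger buds, gave no call in either direction with the deposited values. Of 8 measured genes, limma called 0, with 1 at an unadjusted p under 0.05, and 6 had a day 3 mean under 5. Under spike-in centring 0 were higher and 5 lower by limma, and the median of -0.06 became -0.56. SDS, a cyclin of meiosis, read 3.76 and 3.39 on day 5, against 4.07 and 3.68 on day 3. Patterning genes of floral organs were mixed, with 3 of 18 higher and 6 lower. Without any 1 array 1 was higher (3 without day 3 replicate 2), and 2 to 4 were lower, fewest without day 3 replicate 2 and then (3) without day 5 replicate 2. With spike-in centring 1 was higher and 11 lower. YAB3, of the YABBY family that marks the lower face of organs, read 7.29 and 7.26, against 8.60 and 8.69 (-1.37 ± 0.11, adjusted p = 0.000248). NGA1, of style development, read 6.97 and 6.74, against 7.55 and 7.69 (-0.77 ± 0.13, adjusted p = 0.00392), while ALC, which patterns the fruit's opening zone, read 9.60 and 9.63, against 8.47 and 8.47 (1.15 ± 0.13, adjusted p = 0.000776). The falls of TSO1 (-0.61), lost without either replicate 2 of days 5 and 3, and NGA3 (-0.64), lost without day 5 replicate 1 or day 3 replicate 2, were less firm. JAG (-0.45) lost its call without day 5 replicate 2, without any 1 array of days 3 and 4, with the 4 arrays of days 3 and 5 alone and with a trended and robust prior.

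**Figure D4:**
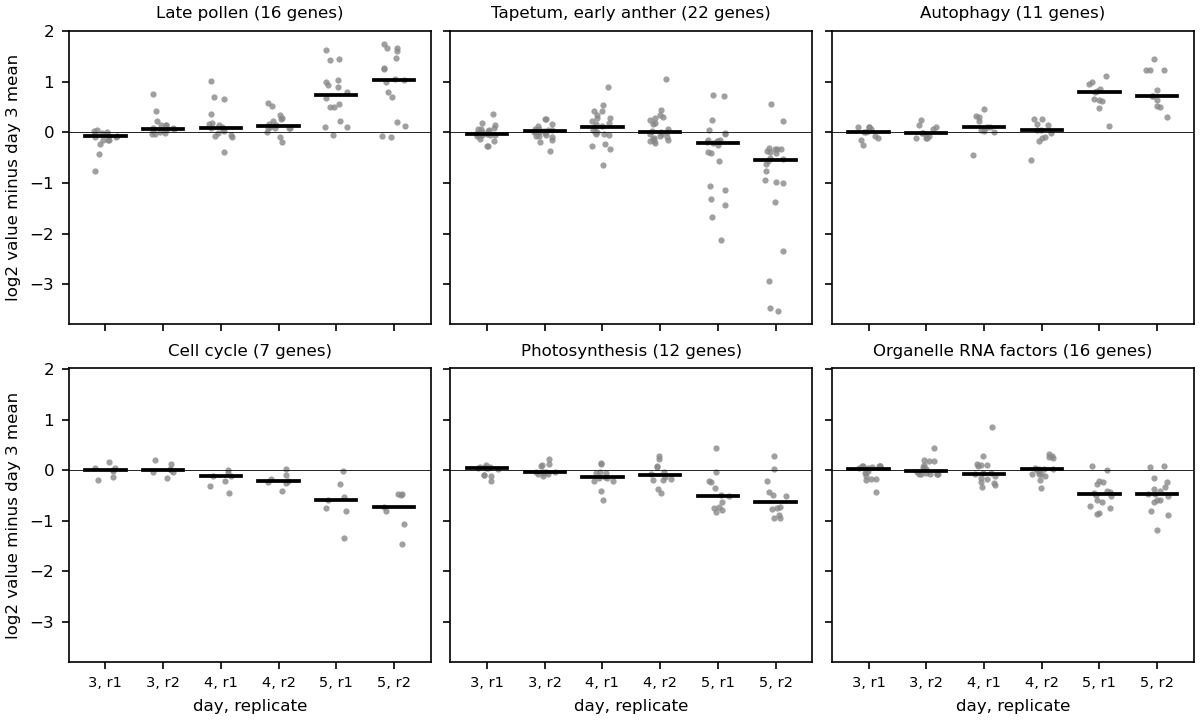
Log2 value minus the day 3 mean for each gene (grey points) on each of the 6 arrays in 6 lists and families, with the list's median on that array as a black bar. Medians of the late pollen and autophagy genes lie above 0 on both day 5 arrays, and those of the tapetum, cell cycle, photosynthesis and organelle RNA genes below 0, with the longest lower tail for tapetum genes on day 5 replicate 2.

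Several genes of cell division fell. Of 7 cell cycle genes 5 fell and 2 did not pass, with a median of -0.70 (5 fell without any 1 array except replicate 2 of day 5 or day 3, where 3 did). PRL, a subunit of the helicase that licenses DNA replication, read 8.57 and 8.45 on day 5, against 9.92 and 9.91 on day 3 (-1.41 ± 0.12, adjusted p = 0.000279). BUB3.1, of the spindle checkpoint, read 8.49 and 8.23, against 9.34 and 9.26 (-0.94 ± 0.13, adjusted p = 0.00173), and the Aurora kinase gene AUR1 read 8.10 and 8.13, against 8.90 and 8.82 (-0.74 ± 0.11, adjusted p = 0.0023). AUR2 (-0.51 ± 0.13) lost its call without day 3 replicate 2 and without each of the day 5 arrays, and HTR12, the centromeric histone H3 (-0.70 ± 0.16), without replicate 2 of either day. AUR3 read 7.07 and 6.60, against 7.06 and 7.11 (adjusted p = 0.305). In the family named after cyclins and cell division kinases, limma called 0 of 2 measured genes, with 0 at an unadjusted p under 0.05 and differences of 0.32 and 0.55.

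Of 8 measured histone genes 5 fell and 1 rose, the linker variant HIS1-3, with a median of -0.49. Fewer fell in most fits without 1 array, fewest without day 5 replicate 2, and with spike-in centring 6 were lower. The falls included genes of the core histone H2B. HTB11 read 9.98 and 9.72 on day 5, against 10.53 and 10.64 on day 3 (-0.73 ± 0.13, adjusted p = 0.00504), and HTB2 read 10.94 and 10.83, against 11.42 and 11.88 (-0.77 ± 0.17, adjusted p = 0.0114, lost without day 5 replicate 2). Among 38 genes of kinesins and microtubule-associated proteins 13 fell and 25 did not pass, with a median of -0.26 and 7 to 13 calls lower without any 1 array, fewest without day 5 replicate 2. With spike-in centring 34 were lower. TRM31, of a family that aligns microtubules, read 4.21 and 4.33, against 5.87 and 5.38 (-1.35 ± 0.17, adjusted p = 0.00132). The gene listed as iqd21, of a calmodulin-binding family found at microtubules, read 7.95 and 7.75, against 8.80 and 8.84 (-0.97 ± 0.12, adjusted p = 0.00109), and IQD23 read 6.71 and 6.61, against 7.46 and 7.52 (-0.84 ± 0.11, adjusted p = 0.00144).

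Cell wall genes gave calls in both directions. Genes of cellulose and hemicellulose synthesis had 11 falls and 3 rises among 34, with a median of -0.29, and 3 to 11 falls without any 1 array, fewest without day 5 replicate 2 and then (7) without replicate 1. The rises numbered 1 without day 5 replicate 2, and with spike-in centring 29 were lower and 0 higher by limma. TBL45, of a family that acetylates wall polymers, read 7.62 and 7.41 on day 5, against 9.35 and 9.45 on day 3 (-1.88 ± 0.12, adjusted p = 9.2e-05). CSLA03, a mannan synthase-like gene, read 4.83 and 4.69, against 5.94 and 5.68 (-1.05 ± 0.14, adjusted p = 0.00154). The wall-loosening expansins had 5 rises and 3 falls among 19, with 3 rises without any 1 array except day 5 replicate 1, and 2 higher and 12 lower under spike-in centring. EXPA15 read 9.36 and 9.27, against 10.55 and 11.06 (-1.49 ± 0.17, adjusted p = 0.000794), and EXPB3 read 8.84 and 8.72, against 9.63 and 10.19 (-1.13 ± 0.18, adjusted p = 0.00354). EXLB1 read 7.69 and 7.60, against 6.08 and 6.28 (1.46 ± 0.20, adjusted p = 0.00163), and EXPA24 read 7.85 and 7.71, against 6.10 and 6.78 (1.34 ± 0.24, adjusted p = 0.00501).

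Of 9 xyloglucan enzymes, which cut and rejoin wall polymers, 2 rose and 2 fell (1 and 5 with spike-in centring, and 1 rise without day 3 replicate 2). XTH32 read 6.71 and 6.22 on day 5, against 8.68 and 9.03 on day 3, a 5.23-fold fall (adjusted p = 0.000251), and XTH16 read 7.99 and 7.67, against 8.91 and 9.07 (-1.16 ± 0.15). XTH19 was higher, at 6.40 and 7.63, against 5.23 and 5.08 (1.86 ± 0.39, adjusted p = 0.0102, lost without day 3 replicate 2). Among 36 glycosidases 9 fell and 3 rose, with 5 rises without day 5 replicate 1 and 28 lower with spike-in centring. BGLU44 read 8.80 and 8.37, against 10.41 and 10.41 (-1.83 ± 0.16, adjusted p = 0.000334), and GH9B8, of the endoglucanase family, read 6.92 and 6.78, against 8.40 and 8.45 (-1.57 ± 0.11, adjusted p = 0.000137). BGLU45, a monolignol glucosidase, read 5.82 and 6.18, against 4.57 and 4.27 (1.58 ± 0.16, adjusted p = 0.000535).

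Photosynthesis genes, markers of the green tissue of the bud, were lower in 8 of 12 cases, with 4 not passing and a median of -0.60. SBPASE, an enzyme of the Calvin cycle, read 10.74 and 10.62 on day 5, against 11.63 and 11.51 on day 3 (-0.89 ± 0.11, adjusted p = 0.00135). RCA, Rubisco activase, read 12.31 and 12.28, against 13.08 and 13.00 (-0.74 ± 0.11, adjusted p = 0.00261), and PORB, of chlorophyll synthesis, read 9.32 and 9.16, against 9.99 and 10.22 (-0.87 ± 0.13, adjusted p = 0.00225). The photosystem II gene PSBY changed by -0.76 ± 0.13 and ATPC1, of the chloroplast ATP synthase, by -0.52 ± 0.11. LHCB4.3, an antenna gene (-0.69 ± 0.15), lost its call without day 5 replicate 2 or day 3 replicate 1. Its relative LHCB4.2 read 11.06 and 10.91, against 10.75 and 10.53, a difference of 0.35 that did not pass (adjusted p = 0.0833). Without any 1 array 5 to 7 of the list were lower, fewest without day 5 replicate 2, and with spike-in centring 11. The broader family of photosystem, antenna and Calvin cycle names had 9 of 32 lower and a median of -0.39. Leaving out replicate 2 of day 5 gave 4 such calls, leaving out replicate 2 of day 3 gave 13, and spike-in centring gave 21.

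Genes of organelle RNA processing were lower too. Of 16 genes for factors that edit or splice organelle transcripts, most of them pentatricopeptide repeat proteins, 9 fell and 7 did not pass, with a median of -0.50 (4 to 7 fell without any 1 array, 4 without day 3 replicate 2 and 5 without day 5 replicate 2, and 15 were lower with spike-in centring). OTP84, an editing factor of the chloroplast, read 5.29 and 4.96 on day 5, against 6.12 and 6.15 on day 3 (-1.02 ± 0.15, adjusted p = 0.00261). CRR21, also of chloroplast editing, read 6.72 and 6.56, against 7.54 and 7.38 (-0.82 ± 0.15, adjusted p = 0.00505), and OTP43, a mitochondrial splicing factor, read 4.16 and 4.40, against 4.92 and 4.84 (-0.60 ± 0.12, adjusted p = 0.00937). Of 16 genes with ribosomal protein names, 15 lie on the plastid genome and 5 of these fell (of the 16, spike-in centring gave 15 falls, leaving out day 5 replicate 2 gave 3 and leaving out day 3 replicate 2 gave 8), including rpl36 at 9.74 and 9.54, against 10.42 and 10.68 (-0.91 ± 0.15, adjusted p = 0.00404), rps2 (-0.76 ± 0.12) and rps16 (-0.82 ± 0.18, lost without day 5 replicate 2). Over all 69 plastid-encoded genes, a set taken after the data were seen, 11 fell (15.9%), near the 14.4% of all named genes. With spike-in centring 52 were lower. The count of 11 moved widely, up and down, when single arrays were left out.

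In specialised metabolism calls went both ways. Of 13 measured genes of the flavonoid, glucosinolate and wax list 7 fell and 2 rose, with a median of -0.62. The list holds regulators as well as enzymes of synthesis, and fewer genes fell in some fits without 1 array. BCAT4, which starts methionine chain elongation for glucosinolates, read 5.03 and 4.40 on day 5, against 7.51 and 8.33 on day 3 (-3.21 ± 0.29, adjusted p = 0.000341), a 9.23-fold fall. UGT74B1, which adds the glucose of the glucosinolate core, read 7.35 and 7.22, against 8.23 and 8.46 (-1.06 ± 0.13, adjusted p = 0.000968). UGT78D1, a flavonol rhamnosyltransferase, read 9.17 and 9.14, against 10.46 and 10.64 (-1.40 ± 0.13, adjusted p = 0.000406), while UGT78D2 differed by -0.32 without passing (adjusted p = 0.135). UGT84A1, of hydroxycinnamate glucosides, changed by -1.0 ± 0.13. The list's rises were AT5G61590, at 8.79 and 8.98, against 5.62 and 5.73 (3.21 ± 0.14, adjusted p = 1.58e-05), and AT1G04770, at 8.00 and 7.90, against 6.52 and 6.15 (1.62 ± 0.14, adjusted p = 0.000334). Both are given by locus alone and are not read here as rises of synthesis enzymes. BGLU28, a beta-glucosidase known to rise in sulfur deficiency, read 8.85 and 8.67, against 7.56 and 7.48 (1.25 ± 0.15, adjusted p = 0.00105).

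Across 48 UDP-glycosyltransferases 11 fell and 2 rose, with 38 and 2 under spike-in centring. The rises were UGT85A5, at 8.48 and 8.62 on day 5, against 6.35 and 6.18 on day 3 (2.28 ± 0.15, adjusted p = 8.34e-05), and UGT87A2, at 6.88 and 6.92, against 5.83 and 5.97 (1.00 ± 0.14, adjusted p = 0.00199). In the glutathione S-transferase family 4 of 14 fell and 1 rose (1 fell without day 5 replicate 2 or day 3 replicate 1, and 12 with spike-in centring), the largest fall being that of GSTU20, at 9.07 and 8.82, against 10.08 and 11.18 (-1.69 ± 0.31, adjusted p = 0.00611). Of 22 cytochrome P450 genes 2 were higher and 1 lower, with a median of 0.01, or -0.50 with spike-in centring, and 0 were higher by limma without replicate 2 of either day. CYP71B31 had the largest difference of these, at 8.30 and 10.31, against 6.10 and 4.39 (4.06 ± 1.07, adjusted p = 0.0252). Both of its days were widely spread, and the call was lost without replicate 2 of either day, with a trended and robust prior and with array weights.

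Among named genes, 3 of the 4 deepest falls are members of the pathogen and salicylate list, beside BCAT4. That list was chosen with earlier results of these data known, so this is no result about defence genes. The deepest fall of all (-4.26) was in a probe set without a gene name here. Of 11 measured genes of the pathogen and salicylate list 6 fell and 1 rose, with a median of -0.55. AT5G03350 read 4.36 and 4.07 on day 5, against 7.81 and 7.47 on day 3, a 10.8-fold fall (-3.43 ± 0.17, adjusted p = 2.63e-05). AT4G11190 read 4.52 and 4.41, against 7.84 and 7.85 (-3.38 ± 0.11, adjusted p = 9.51e-06), and AT2G41090 read 6.68 and 6.46, against 9.74 and 9.55 (-3.07 ± 0.13, adjusted p = 1.58e-05). All 3 were well above the floor on day 3, and the day 5 arrays of the first 2 lay near it. AT1G09750 read 7.51 and 7.35, against 9.82 and 9.85 (-2.41 ± 0.12, adjusted p = 2.77e-05). The defensin-like genes split, with LCR68 at 10.72 and 10.82, against 11.62 and 11.58 (-0.83 ± 0.11, adjusted p = 0.00156), and PDF2.1 at 6.79 and 6.62, against 5.33 and 5.30 (1.39 ± 0.11, adjusted p = 0.000254).

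Several of the largest changes fell in none of the lists. SIS, named for salt induction, read 11.15 and 11.79 on day 5, against 7.21 and 7.33 on day 3 (4.21 ± 0.22, adjusted p = 3.68e-05), and ZW9 read 8.73 and 9.03, against 4.71 and 4.65 (4.2 ± 0.35, adjusted p = 0.000254). AT5G01300, AT1G76590, AT1G26800, AT2G37870, AT1G05340 and AT2G05540 rose by 3.59 to 3.83, and the annotation gives them by locus alone. AT5G62730, AT5G44020, AT5G55620, AT5G55450, AT4G10270, AT1G62500, AT2G31730, AT3G53190, AT5G11930, AT5G24820 and AT1G68780 completed the 20 largest falls, with differences from -2.51 to -2.08. Only AT5G24820 among these lost its call with an array left out, day 3 replicate 2. Of 5 measured genes often used as references, limma called 0 and 0 had an unadjusted p under 0.05, though all 5 were lower with spike-in centring, and GAPC2 read 12.48 and 12.44, against 12.51 and 12.66 (adjusted p = 0.489).

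Most of the change over the interval fell in its second day. The comparisons share the day 4 arrays, so the steps are given side by side. For the first step, 0.501% of probe sets passed, and for the second 22.1%. Of the 997 rises of at least 2-fold, 52 passed for the first step alone or with the second and 903 for the second, with 38 in both and 80 in neither. The corresponding numbers for the 705 falls were 32, 647, 16 and 42. On day 4 the rises had reached a median of 18.7% of their final difference (quartiles 6.55% and 31.8%) and the falls 22.8% (quartiles 11.7% and 36.1%). Past the midpoint by day 4 were 77 rises and 77 falls, and 153 rises and 69 falls stood on the opposite side of day 3.

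**Figure D5:**
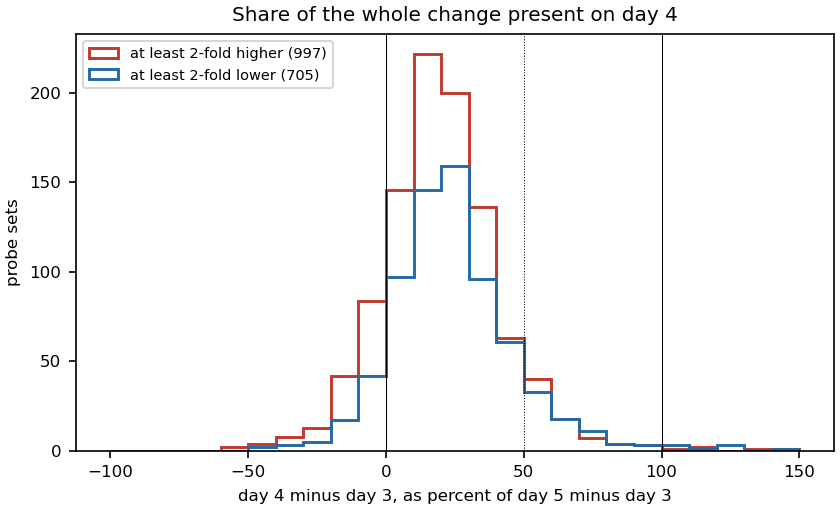
Day 4 minus day 3 difference as a percent of the day 5 minus day 3 difference, in bins of 10 percent, for the 997 probe sets at least 2-fold higher (red) and the 705 at least 2-fold lower (blue). The dotted line marks the midpoint; most probe sets of both groups lie to the left of it, around medians of 18.7% and 22.8%.

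Whether the steps of a gene differ was tested directly, as the second step minus the first. This passed for 1.93% of all probe sets, and for 216 of the 997 rises, of which 209 had the larger second step. Among the falls it passed for 58 of 705, in 52 of which the second step was the larger. In HIS1-3 and in AT3G17520 the second step was the larger, and no test compared the genes with each other. HIS1-3 stood at 4.83 and 4.98 on day 3, 7.92 and 6.70 on day 4, and 12.36 and 12.49 on day 5, with a step difference of 2.71 that did not pass (adjusted p = 0.0651). AT3G17520 stood at 3.6 and 3.79, 4.12 and 4.08, and then 9.70 and 9.56, a step difference of 5.12 that passed. GI took the larger part of its rise early, at 5.96 and 5.73 on day 3, 8.37 and 8.12 on day 4, and 9.32 and 9.31 on day 5. AT2G37870 was nearly at its final level by day 4, at 7.02 and 6.60 on day 3, 10.34 and 9.55 on day 4, and 10.55 and 10.61 on day 5. COR15B changed side, at 10.10 and 10.19 on day 3, 10.59 and 10.70 on day 4, and 9.42 and 9.37 on day 5.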

How the data were processed

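RNA of unopened buds was hybridised to 6 single-colour Affymetrix arrays, 2 per day, grouped by the sample titles. The deposited values are log2 probe set summaries, and per the submitters' processing notes the authors used RMA and the affy package. Versions, and whether these arrays were normalised with others, are not given in the sources used here. Array number limits the precision.

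Names came from the array's platform annotation, updated from a RefSeq gene table (TAIR10.1): 13513 have 1 gene, 503 several and 8730 none listed, and 13436 matched the table. Genes with none are unnamed here. Differences between days were tested in R 4.3.3 with limma 3.58.1 (lmFit, eBayes, 3 group means on all 6 arrays, two-sided, Benjamini-Hochberg, threshold 0.05), with 3 residual and 4.69 prior degrees of freedom, after a check on simulated data.

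The members and all 24 gene lists (1231 entries, 27 left out because locus and symbol differed, 223 measured) and 49 name-based families were chosen with earlier results of these data known. Named are the 20 largest rises and 20 largest falls, up to 6 called and 3 uncalled genes of each list with at least 3 measured (all where 6 or fewer were measured) and up to 3 called genes per direction of each family with at least 5. THI2.1 falls under this rule and ATA27 outside it. Lost calls were read from fits without 1 array, with the 4 arrays of days 3 and 5, without probe sets of mean under 5, with probe sets of 1 gene, with another prior, array weights or a replicate block, and after cyclic loess, median centring or poly-A spike-in centring (24 probe sets). Leaving out either day 4 array gives the same day 5 against day 3 calls as the 4 arrays of days 3 and 5 alone. These settings are not separate checks. Promoter motifs were not analysed here, as no promoter sequences were used. Replicate numbers were not treated as pairs, because nothing in the labels says that a number is a shared pot or planting. Deviations of same-numbered arrays correlated at 0.14 (days 5 and 3), 0.38 (days 5 and 4) and 0.099 (days 4 and 3). These values do not settle whether the arrays are paired.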

Additional observations from a re-analysis of the deposited data

Results flagged for a closer look

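For 15 of the 40 largest changes, the change from day 4 to day 5 differed from the change from day 3 to day 4 in the limma test of that difference, given here as the second step minus the first on the log2 scale. The second step was the larger rise for AT1G22890 (5.17), AT3G17520 (5.12), AT3G15670 (4.11), AT1G49500 (3.95), AT5G45310 (3.6), AT1G26800 (3.53), AT2G05540 (3.47), AT1G76590 (2.58), SIS (2.41), AT2G21820 (2.33) and LEA18 (2.27). For AT2G37870 (-2.50) the first step was the larger rise. Among the falls, the second step was the larger for BCAT4 (-2.83) and AT4G11190 (-1.91), and the first step for AT5G44020 (2.51), which read 6.36 and 6.46 on day 4 and 6.35 and 6.50 on day 5.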

How the results depend on the processing

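Of the 186 named genes that passed, 155 to 179 still passed when any 1 array was left out and 161 with spike-in centring. The 6548 calls became 1702 with a 2-fold requirement (997 higher, 705 lower), 3439 with probe sets of 1 gene (1582 higher, 1857 lower, and 7964 with separated arrays), and 16041 with spike-in centring (1102 higher, 14939 lower). The 1-gene setting tests fewer features, 13513 of 22746, which lowers its counts by construction. Of the 6548 calls, 2996 were in probe sets without exactly 1 listed gene, which this setting leaves out. All of its 3439 calls were among the 6548. The cause of the spike-in shift was not tested. A fit without 1 array has fewer residual degrees of freedom, which alone can lose calls. A call lost in this way need not depend on that array. Without any 1 array the count was 3894 to 5375, with 1924 to 2608 higher and 1970 to 3030 lower. The other settings (the 4 arrays alone, mean of at least 5, trended and robust prior, cyclic loess, median centring, array weights) gave 5312 to 6654 calls. Cyclic loess made 53.7% of the calls higher, against 44.7%. With the replicate block 7333 passed, and no named call was lost. Spike-in centring turned the sign of 33 named differences, most of them past the threshold under neither scaling. The 7 that passed under the deposited or the centred values became, when centred, BZIP53 (-0.46), D2HGDH (-0.47), BOB1 (-0.084), AT2G28490 (-0.45), AT2G28390 (-0.46), GSTU16 (-0.0058) and PMEPCRF (-0.0027). Motifs in promoters, planned as a description, were not run.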
